A study of Mus musculus with 12 samples.

Results

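The plasma proteins that the liver secretes, together with the coagulation factors, complement components and serpins of the same name families, were followed in mouse liver during fasting. Members were all array probes whose gene name in the scanner files matched a fixed set of names: acute-phase proteins, complement components and factors, coagulation factors, fibrinogen, serpins, inter-alpha-trypsin inhibitors, albumin, transferrin, transthyretin and a few others. The rule read names and no measured value, and it found 38 of the 20280 probes, which carry 33 of the 7181 gene names of the array. It matched no probe named for albumin, haptoglobin, hemopexin, serum amyloid A, orosomucoid, a fibrinogen chain, complement C3 or hepcidin, so that these proteins are not described. Names of other function were matched as well, and 7 of the 38 probes (C1d, C2pa with 4 probes, C4st and Ormdl2) encode no plasma protein. The files' older names Spi1-5, Spi6, Spi11, Spi12 and C2pa stand for Serpina1e, Serpinb9, Serpinb9c, Serpinb6b and Rgs3.

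All mice were FVB males of 6 weeks with water at hand. The fed group had chow ad libitum, and the other groups were without chow for 12, 24 or 72 hours, in metabolic cages and, from 24 hours on, under an infrared lamp. Each group had 3 arrays, and each array carried Cy3-labelled RNA pooled from 2 livers against a Cy5-labelled reference pooled from 6 fed livers. A value is therefore the mean of 2 mice, and the spread between arrays is not that between mice.

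Hepatocytes make most of the proteins that circulate in plasma. During an acute-phase response, cytokines act on the hepatocyte through STAT3 and C/EBP transcription factors, which raises the transcripts of the positive acute-phase proteins, such as lipopolysaccharide-binding protein, lipocalin 2 and the serpin Serpina3n. Transcripts of the negative acute-phase proteins, such as transthyretin and, in mice, albumin, decline at the same time. Transthyretin and transferrin also serve in the clinic as markers of nutritional state, because their plasma levels fall when protein supply is short. The liver also makes most coagulation and complement factors, whereas C1q comes from macrophages.

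Levels are given as log2 of sample over reference after quantile normalization, and a log2 difference is the mean of a fasted group minus that of the fed group. Because the dyes were never exchanged, a level of 1 group holds the dye bias of its probe, while a difference between groups does not as long as that bias is the same on all arrays. All 38 probes passed the filter on dim spots in each comparison. Their identity as liver RNA was checked on 5 hepatocyte marker probes (Tdo2, Fah, Apoa1, Ass1 and Ttr, the last a member), which were well above background on all 12 arrays. Median signal over background was between 7.59 and 10.6 on the fed and 72-hour arrays and between 3.50 and 8.28 on the 12- and 24-hour arrays. The dimmest were the second 12-hour array, with 4.72, and the third 24-hour array, with 3.50, and both are named low-signal arrays in what follows. The images had been quantified on 3 days. Fed replicate 1 and the low-signal arrays belonged to one day, fed replicates 2 and 3 and the whole 72-hour group to another, and 4 arrays of 12 and 24 hours to a day of their own in which no fed array was quantified.

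With limma and an adjusted p under 0.05 together with a 1.4-fold change, 0 of the 38 probes passed at 12, 24 or 72 hours, against 0.00497, 0.00497 and 0.00996% of all probes tested. The lowest adjusted p among the members was 0.956, 1.00 and 0.784, respectively. At an unadjusted p under 0.05, 1, 2 and 4 members were reached, against 3.92, 3.04 and 1.55% of all probes. With the looser boundary of an unadjusted p under 0.01 and 1.4-fold, the count was 0, 0 and 3, respectively, against 0.656, 0.641 and 0.428% of all probes. The 3 were Lbp, which was higher, and transthyretin and transferrin, which were lower. Whatever the p, 13, 9 and 7 members differed by 1.4-fold or more, which is 34.2, 23.7 and 18.4% against 12.8, 6.73 and 5.92% of all probes. Their median log2 difference was -0.06, -0.07 and -0.08, against -0.00561, -0.00220 and -0.0145 for all probes tested.

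**Figure D1:**
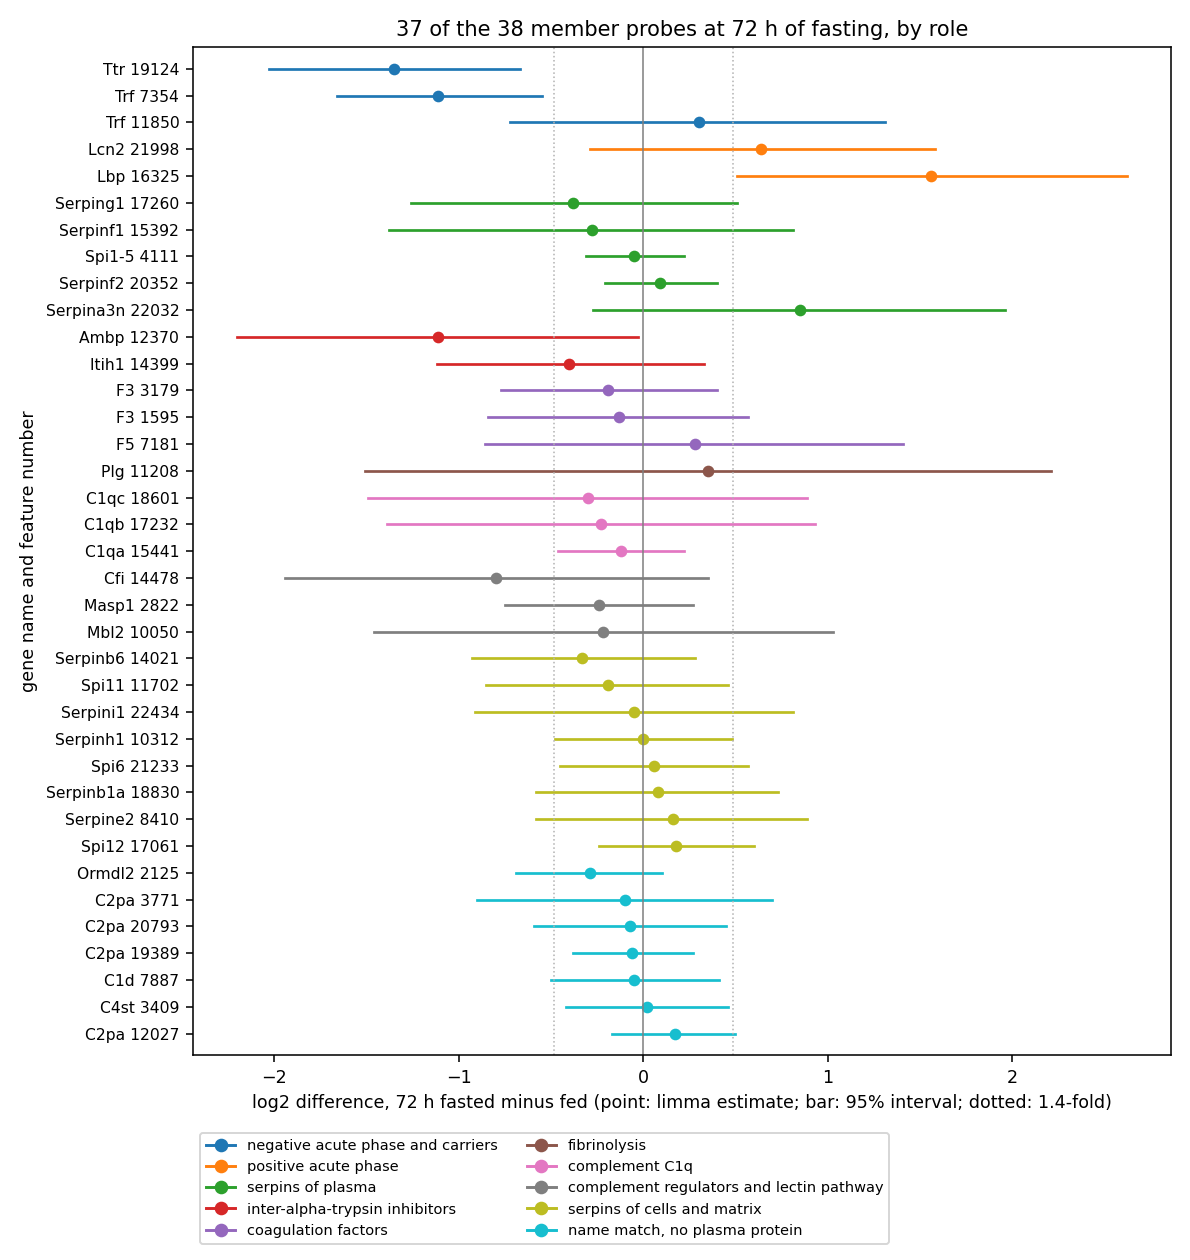
Log2 difference between the 72-hour fasted and the fed arrays for 37 of the 38 member probes (limma estimate with its 95% interval), in blocks by role, with dotted lines at 1.4-fold. The intervals of Ttr, Trf feature 7354 and Ambp lie below 0 and that of Lbp above it, and all others plotted include 0.

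Transthyretin (Ttr) carries thyroxine and the retinol-binding protein in plasma. Its log2 ratio was 0.09, 0.21 and 0.01 on the fed arrays, -0.23, -0.82 and -0.32 at 12 hours, -0.93, -0.74 and -0.36 at 24 hours and -1.84, -1.39 and -0.52 at 72 hours. All 9 fasted arrays lay below all fed arrays. The log2 differences for the 3 times were -0.56, -0.77 and -1.35 (SE 0.31 each, adjusted p = 0.956, 1.00 and 0.784). The spot was so bright that its sample signal was saturated on all 3 fed arrays, with a median of 65191 to 65203 units, whereas it was 29471.5, 41339 and 65066 units at 72 hours. Saturation hides the upper part of the fed level, and a fold from the sample channel is a bound within its own scaling only. After loess and scaling between arrays, the mean log2 sample signal was 15.53 in fed and 14.86 in 72-hour arrays. On that scale the sample signal of Ttr was at least 1.59-fold lower at 72 hours. At 12 hours its mean was 1.21-fold lower, but 1 of the 3 sample spots was saturated as well, so that this value is no bound. No test was made on that scale. The ratios after loess and from the scanner software, given below with those of transferrin, put Ttr closer to fed than the 72-hour bound. The reference signal of Ttr was saturated as well on fed replicates 2 and 3 and on the 72-hour arrays. In RNA of whole liver, fewer cells that make a transcript and less of it per cell cannot be told apart.

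Transferrin (Trf), the iron carrier of plasma, was measured by 2 probes that disagreed. The bright probe, feature 7354, had log2 ratios of 0.37, 0.72 and 0.40 in fed arrays, 0.61, 0.29 and 0.24 at 12 hours, 0.19, 0.15 and 0.33 at 24 hours and -1.19, -0.55 and -0.08 at 72 hours. The 72-hour arrays were below every other array, while the 12-hour arrays overlapped with the fed ones. The log2 difference at 72 hours was -1.11 (SE 0.25, adjusted p = 0.784), and against 24 hours it was -0.83 (adjusted p = 1.00). In that step it was the only member at an unadjusted p under 0.01 with 1.4-fold, against 0.503% of all probes. This spot was also saturated in the sample channel on all fed arrays and on 2 of the 3 arrays at 12 and at 24 hours, so that both differences compare 72-hour values with spots at the limit of the scanner. The mean log2 sample signal was 15.46 in fed and 14.94 in 72-hour arrays, at least 1.44-fold lower on the scale used for the bound of Ttr. The reference signal of this probe was not saturated on any array. The dim probe, feature 11850, with a signal over background of 11.2 to 16.8 in fed arrays, was 0.30 higher at 72 hours on the log2 scale (95% interval -0.72 to 1.31, adjusted p = 1.00). Its values of -0.38 and -0.05 in 2 fed arrays and -0.09, 0.04 and 0.29 at 72 hours overlapped. For both Ttr and the bright Trf probe, the size at 72 hours depended on the normalization. With loess within each array, the log2 difference was -0.52 for Ttr and -0.31 for Trf (adjusted p = 1.00 for both), and with the log ratio of the scanner software -0.49 and -0.29. These differences are smaller than both bounds. The bounds come from the sample channel after the same loess and a scaling between arrays by the mean of both channels. The reference channel thus enters the bounds as well, although in another way than it enters the ratios. Neither bound is therefore a lower limit for the change in ratio.

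Lipopolysaccharide-binding protein (Lbp) presents bacterial lipopolysaccharide to its receptor and is a positive acute-phase protein. Its log2 ratio was 1.02, 0.66 and -0.20 on the fed arrays, 2.14, 0.47 and 1.97 at 12 hours, 0.99, 1.74 and 0.74 at 24 hours and 1.56, 2.53 and 2.07 at 72 hours. At 72 hours all arrays were above all fed arrays, and at 12 and 24 hours the groups overlapped, with the lowest value of each on the low-signal array. The level was 2.05-fold, 1.58-fold and 2.95-fold that of fed liver (log2 difference 1.03, 0.66 and 1.56, SE 0.48 each, adjusted p = 0.956, 1.00 and 1.00). Without both low-signal arrays, the 12-hour difference was 1.57 (adjusted p = 0.0481) and passed the threshold, whereas the low-signal array minus the fed array of its own day gave -0.55. With the fed and 72-hour arrays of 1 quantification day alone, the 72-hour difference was 1.83 (adjusted p = 0.156). It was 1.22 without fed replicate 3 and 1.32 without replicate 2 of 72 hours (adjusted p = 1.00 for both), and then no longer within the looser boundary.

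Lipocalin 2 (Lcn2) binds bacterial siderophores and is produced by hepatocytes and neutrophils in inflammation. Its log2 ratio was 0.46 and -0.47 on 2 fed arrays, -0.32, -0.00 and -0.40 at 12 hours, 0.70, 0.72 and -0.49 at 24 hours and 0.14, 0.83 and 0.96 at 72 hours. The lowest 72-hour value lay between both fed values, and the difference at 72 hours was 0.64 (95% interval -0.29 to 1.58, adjusted p = 1.00).

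**Figure D2:**
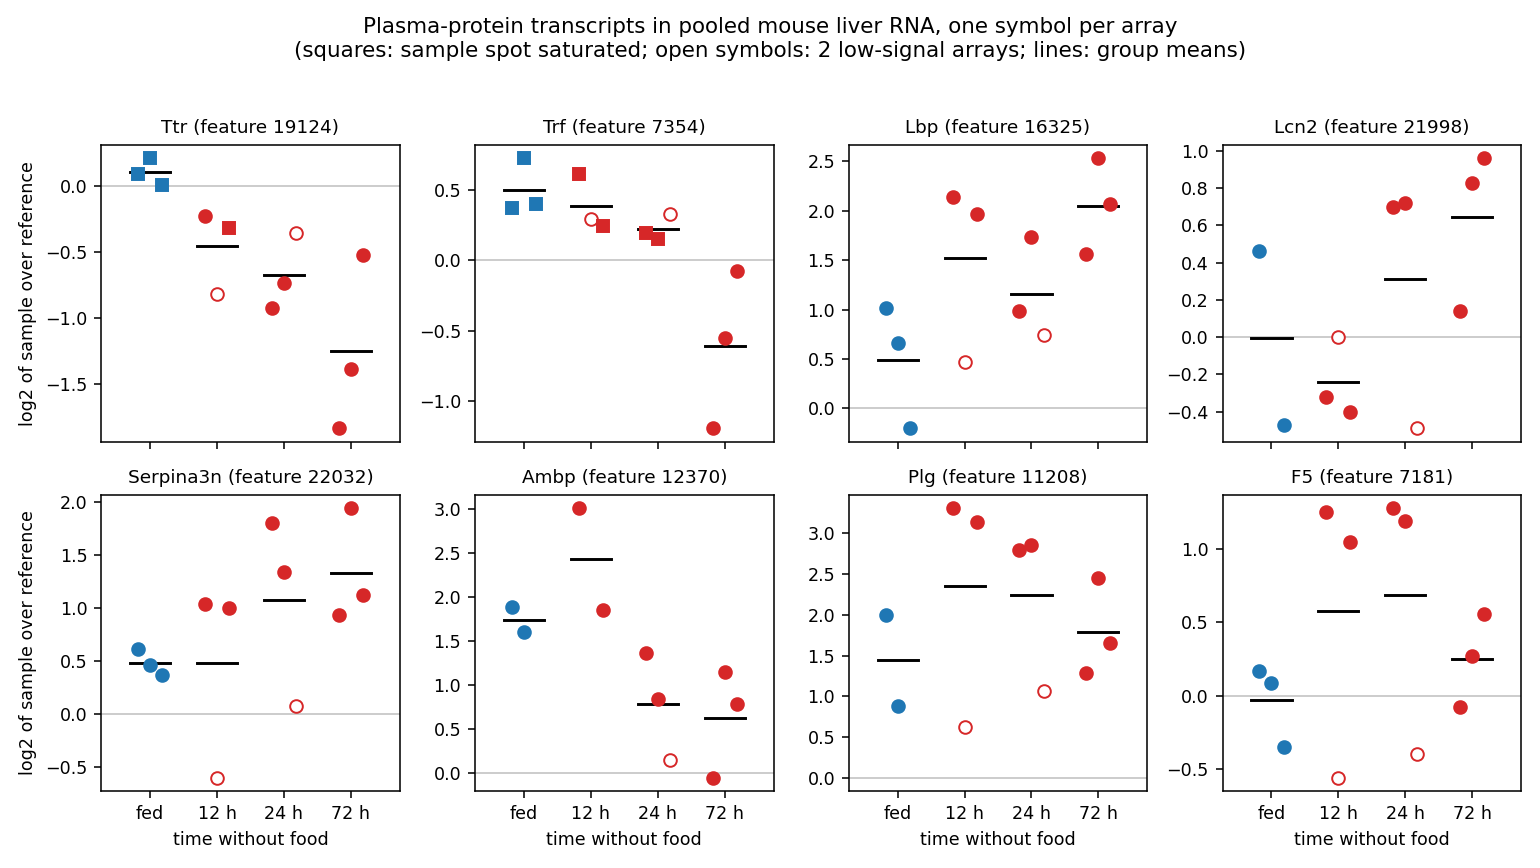
Log2 of sample over reference on each array for 8 members, in fed (blue) and fasted (red) groups, with group means as lines, squares for a saturated sample spot and open symbols for the 2 low-signal arrays. Ttr runs from at most 0.21 in fed to -1.84 at 72 hours and Lbp reaches 2.53, while in the panels of Serpina3n, Plg and F5 the open symbols lie below the other fasted arrays of their group.

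Serpina3n, a protease inhibitor of the antichymotrypsin family that is strongly induced in the mouse acute-phase response, gave 0.61, 0.46 and 0.37 on the fed arrays and 0.93, 1.94 and 1.12 at 72 hours, without overlap. At 24 hours it was 1.80, 1.34 and 0.08, and at 12 hours 1.04, -0.60 and 1.00, where the lowest value of each group came from the low-signal array. The differences for the 3 times were 0.00, 0.59 and 0.85 (SE 0.51, adjusted p = 0.999, 1.00 and 1.00). Without both low-signal arrays, the difference at 24 hours was 1.09 (adjusted p = 0.0256) and passed the threshold, as did 8.81% of all probes in that fit, but that fit compares arrays of different quantification days. In the day that held both a fed and a low-signal array, the differences were -1.21 at 12 and -0.53 at 24 hours, from single arrays.

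Promoters of 22 of the 33 genes were given by RefSeq (GRCm38.p6), among them Lcn2 and Serpina3n but not Ttr, Trf, Lbp or Plg. The 250 bases before the start site are shown for these 2 acute-phase genes, in the direction of transcription. STAT and C/EBP motifs were searched because these factors act in the acute-phase response, and motifs of other acute-phase factors were not searched. Capitals mark a match to one of the motifs searched on both strands, which were TTCNNNGAA (STAT type), TTNNGCAA (C/EBP type), GTTAAT (HNF1 type) and the TATA box. The Lcn2 promoter lies at chr2:32387740-32387989 on the minus strand and that of Serpina3n at chr12:104406458-104406707 on the plus strand.
Lcn2: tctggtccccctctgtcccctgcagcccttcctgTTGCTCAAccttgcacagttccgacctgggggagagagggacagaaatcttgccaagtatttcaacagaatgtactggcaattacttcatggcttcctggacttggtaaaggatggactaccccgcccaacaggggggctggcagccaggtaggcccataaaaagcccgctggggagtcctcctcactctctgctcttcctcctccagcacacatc
Serpina3n: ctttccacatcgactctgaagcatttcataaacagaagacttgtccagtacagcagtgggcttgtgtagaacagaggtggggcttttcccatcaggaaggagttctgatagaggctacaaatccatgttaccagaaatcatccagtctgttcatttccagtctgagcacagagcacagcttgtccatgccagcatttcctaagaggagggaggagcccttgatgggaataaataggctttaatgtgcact
The Lcn2 promoter held 1 match, to the C/EBP type, from 216 to 209 bases before the start, and that of Serpina3n held none. Of the 22 promoters, 2 (9.09%) held the STAT type, 4 (18.2%) the C/EBP type, 2 (9.09%) the HNF1 type and 1 (4.55%) the TATA box, against 7.02, 9.56, 6.43 and 12.4% of all 32851 promoters. Of the 12 promoters of plasma and liver proteins among them, 0, 2, 2 and 0 held these motifs. Both STAT matches belonged to intracellular serpins (Serpinb6 and Spi11), and the C/EBP matches to Lcn2, Spi1-5, Ormdl2 and C2pa, of which the last pair encode no plasma protein. No match says only that these letters are not within this window.

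The other serpins of plasma differed less. Spi1-5 (Serpina1e), an alpha-1-antitrypsin of a family of near-identical copies, had ratios between -0.11 and 0.11 on all arrays. Its fed and 72-hour spots were all saturated in the sample channel, so that no fold is given. Serpinf1 (pigment epithelium-derived factor) gave 0.80, 0.59 and 0.23 in fed and -0.51, 0.46 and 0.83 in 72-hour arrays, which overlap (log2 difference -0.28, adjusted p = 1.00). Serpinf2 (alpha-2-antiplasmin) lay between 0.12 and 0.20 in fed and between 0.18 and 0.34 at 72 hours, a difference of 0.09 (95% interval -0.21 to 0.40). Serping1 (C1 inhibitor) was measured on 2 arrays each in fed and 72-hour liver, and the difference of -0.38 had a 95% interval of -1.26 to 0.51.

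Ambp encodes a precursor of alpha-1-microglobulin and bikunin, and bikunin is the light chain of the inter-alpha-trypsin inhibitors. Its log2 ratio was 1.89 and 1.60 on 2 fed arrays, 3.01 and 1.85 on 2 arrays at 12 hours, 1.37, 0.84 and 0.15 at 24 hours and -0.05, 1.15 and 0.79 at 72 hours. The 24- and 72-hour arrays were all below the fed arrays and below the 12-hour arrays. The difference from fed was 0.69, -0.96 and -1.11 (adjusted p = 0.956, 1.00 and 1.00), and Ambp at 72 hours was 2.17-fold lower. From 12 to 24 hours it was 3.13-fold lower (log2 difference -1.65, SE 0.48, adjusted p = 0.996), the only member at an unadjusted p under 0.01 with 1.4-fold in this step, against 0.0447% of all probes. One fed and one 12-hour spot were outliers and had no value. Itih1, a heavy chain of the same inhibitors, gave 0.29, 0.36 and -0.31 in fed arrays, 0.97 and 0.54 at 12 hours, 0.42 and -0.30 at 24 hours and -0.49 and -0.08 at 72 hours. Its 2 values at 12 hours lay above the fed ones (difference 0.65, adjusted p = 0.956), and those at 24 and 72 hours overlapped with them.

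Plasminogen (Plg), the zymogen of the fibrin-cleaving protease plasmin, had log2 ratios of 2.00 and 0.88 on 2 fed arrays, 3.31, 0.62 and 3.14 at 12 hours, 2.80, 2.86 and 1.06 at 24 hours and 1.28, 2.45 and 1.65 at 72 hours. Coagulation factor V (F5), the cofactor of factor Xa, gave 0.17, 0.09 and -0.35 in fed arrays, 1.25, -0.56 and 1.05 at 12 hours, 1.28, 1.19 and -0.40 at 24 hours and -0.08, 0.27 and 0.56 at 72 hours. In both genes the arrays with usual signal at 12 and 24 hours were above all fed arrays and the low-signal arrays were not. The differences were 0.91, 0.80 and 0.35 for Plg and 0.61, 0.72 and 0.28 for F5, with adjusted p between 0.956 and 1.00. Without both low-signal arrays, the 12-hour difference was 1.78 for Plg and 1.18 for F5 (adjusted p = 0.0461 and 0.0219) and that of F5 at 24 hours was 1.26 (adjusted p = 0.00795). Those values compare arrays of different quantification days. Within the 1 day that held both a fed and a 12- or 24-hour array, the fasted arrays were the low-signal ones, and the log2 difference of Plg in single arrays was -1.38 at 12 hours and -0.94 at 24 hours. The part of the day and of the signal in these differences was not tested.

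Tissue factor (F3), the membrane receptor that starts coagulation, was measured by 2 probes. Feature 1595 was at -0.01 and 0.03 on 2 fed arrays and at -0.15 and -1.38 at 12 hours, where the second value came from the low-signal array (log2 difference -0.77, adjusted p = 0.956). Without that array it was -0.16. Feature 3179 differed by -0.13 at 12 hours, and at 72 hours both differed little (-0.13 and -0.19, adjusted p = 1.00 each).

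C1q, the recognition part of the classical complement pathway, is encoded by C1qa, C1qb and C1qc. C1qb gave 0.42, 0.08 and -0.27 in fed arrays, 0.25, -1.78 and 0.21 at 12 hours, 0.37, 0.51 and -0.97 at 24 hours and -0.26, -0.15 and -0.07 at 72 hours. C1qc followed with 0.37, 0.21 and -0.56, then 0.08, -2.04 and -0.01, then 0.09, 0.11 and -1.17, and then -0.53, -0.23 and -0.13. In both, the low-signal arrays were the lowest of their groups by a wide margin, and the other 12- and 24-hour arrays lay within or above the fed range. C1qa stayed between -0.22 and 0.13 on all arrays. The differences at 72 hours were -0.12, -0.23 and -0.30 for C1qa, C1qb and C1qc (adjusted p = 1.00 each). Other genes of macrophages and leukocytes were also lowest on a 12-hour array. Over 10 probes for 9 such genes of 25 listed, the mean log2 ratio lay between -0.05 and 0.15 in fed arrays, between -1.12 and 0.03 at 12 hours, between -0.55 and -0.10 at 24 hours and between -0.31 and -0.20 at 72 hours, and 9 of the 10 were well above background on all arrays. Their summed sample signal was 8981 to 57166 units in fed arrays, 1539 to 24362 at 12 hours, 2177 to 12365 at 24 hours and 44085 to 50509 at 72 hours. This sum was not normalized between arrays, so that it also holds the brightness of each array. For the 5 hepatocyte marker probes it was 170259 to 178111 units in fed arrays, 10204 to 240971 at 12 hours and 20185 to 197582 at 24 hours. The part of the macrophage and leukocyte genes in the C1q values was not tested.

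Among the regulators of complement, the protease Cfi, which inactivates C3b and C4b, was at -0.04, 0.27 and -0.81 in fed arrays and at -1.46, -1.04 and -0.48 at 72 hours, with overlap (log2 difference -0.80, 95% interval -1.94 to 0.35, adjusted p = 1.00). The mannose-binding lectin Mbl2 gave 0.04, 0.44 and -0.42 in fed arrays and -0.72, -0.24 and 0.37 at 72 hours, and it was lowest, at -2.11, on the low-signal array of 12 hours. The lectin-pathway protease Masp1 differed by -0.24, -0.06 and -0.24 at the 3 times. None of these 3 reached an unadjusted p under 0.05 at any time.

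The 8 serpins that act inside cells or in the matrix lay close to the fed values at 72 hours, between -0.33 for Serpinb6 and 0.18 for Spi12. Serpine2 (protease nexin 1) was at 0.21, -0.05 and -0.17 in fed arrays and at 0.61, 0.89 and 0.29 at 12 hours, without overlap (difference 0.60, SE 0.33, adjusted p = 0.956). Neuroserpin (Serpini1) was near 0 on most arrays and at 1.06 and 0.90 on the low-signal arrays of 12 and 24 hours. The 7 probes whose names match but encode no plasma protein ranged from -0.29 to 0.17 at 72 hours. Feature 20793 of C2pa (Rgs3, a regulator of G-protein signalling) was at -0.56, -0.18 and 0.01 in fed and at -0.83, -1.41 and -0.51 at 24 hours (difference -0.67, adjusted p = 1.00). The other 3 probes of this gene differed by -0.08 to 0.01 at that time.

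**Figure D3:**
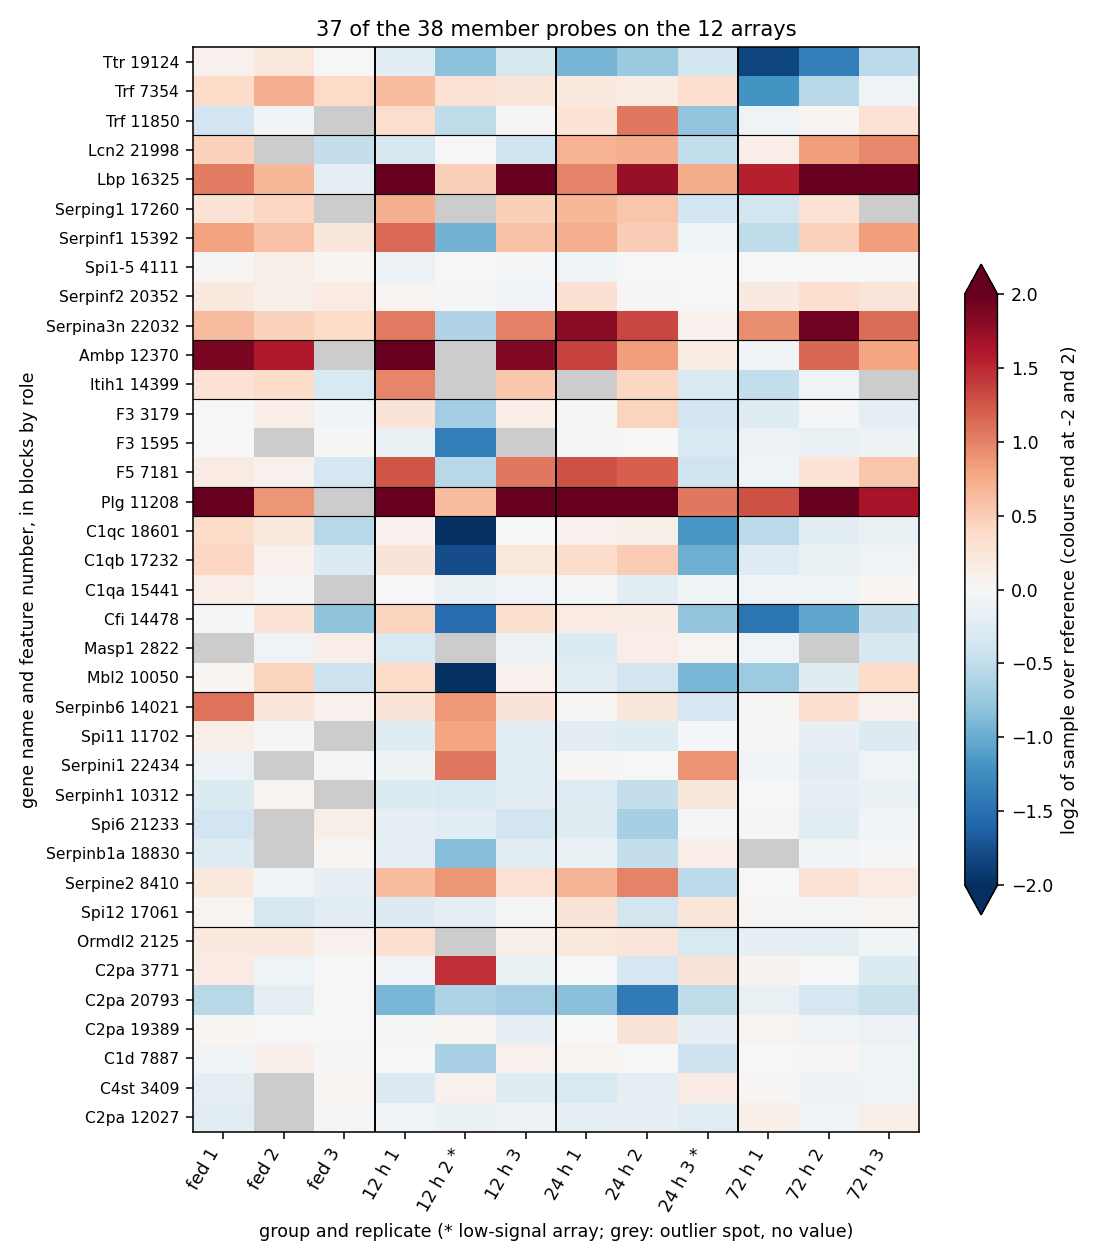
Log2 of sample over reference for 37 of the 38 member probes (rows, in blocks by role) on the 12 arrays (columns, by group), red for higher and blue for lower than the reference, grey for spots without a value. The starred low-signal arrays hold the deepest blue of C1qb, C1qc and Mbl2 (down to -2.11), and Ttr is blue on the 9 fasted arrays.

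The low-signal arrays held a large part of the low values. Of the members measured, 14 of 32 were below -0.5 on replicate 2 of 12 hours and 8 of 38 on replicate 3 of 24 hours. Replicate 1 of 72 hours, with usual signal, had 7 of 37, and the other arrays had 0 to 3. The share of all probes below -0.5 was not counted, so that these counts are no result about the members. Between members with 3 values in both groups, 5 of 20, 3 of 22 and 6 of 22 did not overlap with fed after 12, 24 and 72 hours, respectively (25.0, 13.6 and 27.3%), against 12.7, 11.4 and 18.9% of all such probes. Spi1-5, whose fed spots were saturated in both channels, has no usable order and is among them at each time. Without it the counts were 4 of 19, 2 of 21 and 5 of 21 (21.1, 9.52 and 23.8%). At 72 hours these 5 were Lbp and Serpina3n above fed, and Ttr, Trf feature 7354 and Ormdl2 below it. When limma weighted each array by its own spread, 5, 7 and 7 members passed, against 9.53, 10.5 and 4.11% of all probes. At 72 hours those 7 were Lbp, Lcn2, Plg and Serpina3n, higher, and Ttr, Trf feature 7354 and Cfi, lower. The weights in that fit were 0.546, 7.15 and 1.57 for fed replicates 1, 2 and 3. They were 0.0368 and 0.0986 for the low-signal arrays of 12 and 24 hours. Fed replicate 2 thus had the largest weight, although 24.7% of its probes were outlier spots. Without both low-signal arrays, 3, 4 and 1 members passed, against 2.60, 8.81 and 0.837%, and the 1 at 72 hours was Ttr (-1.35, adjusted p = 0.0417). When the quantification day was a fixed block, 4, 3 and 0 passed, against 23.9, 12.6 and 0.0210%, and at 12 and 24 hours these were C1qb and C1qc, lower, and Serpini1, higher, with F3 feature 1595, lower, at 12 hours. In that fit the 12-hour difference of Plg turned from 0.91 to -1.10, that of F5 from 0.61 to -0.70 and that of Lbp from 1.03 to -0.23. The difference of Serpina3n went from 0.00 to -1.16 at 12 hours and from 0.59 to -0.57 at 24 hours.

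**Figure D4:**
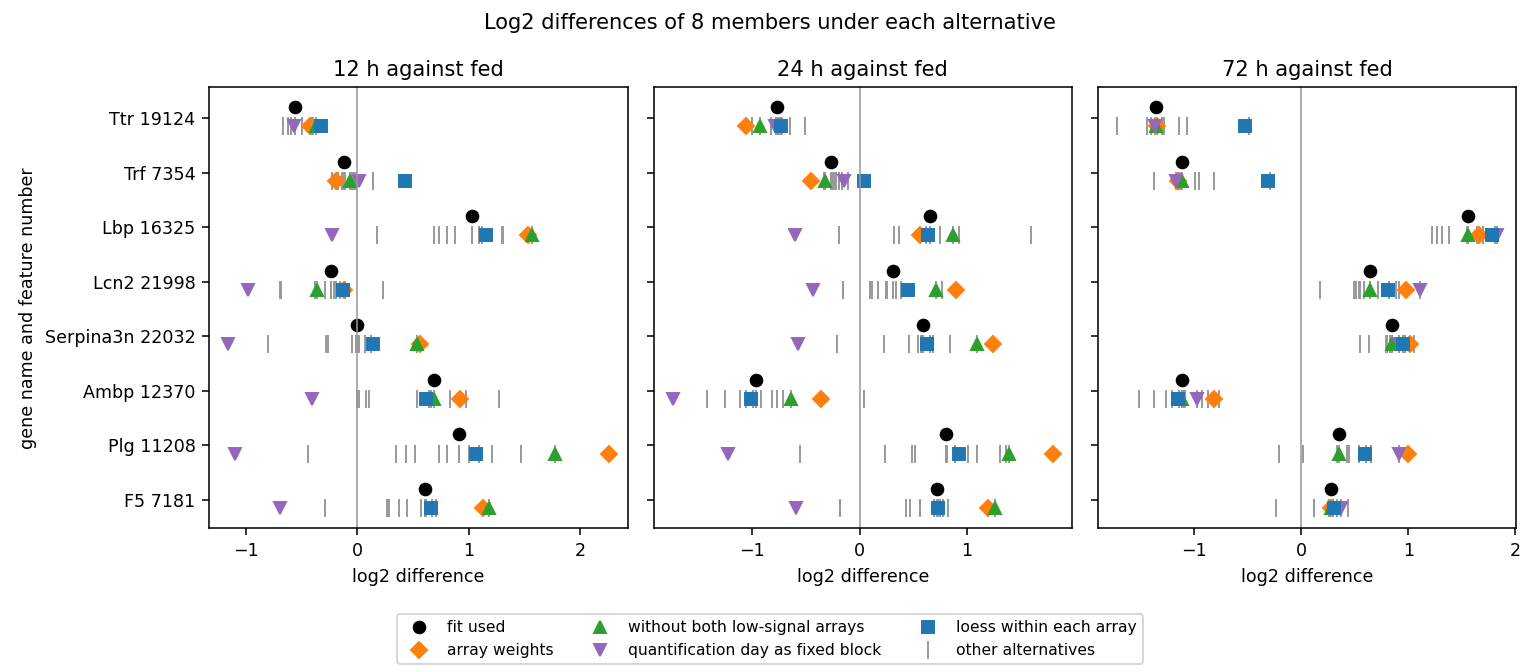
Log2 difference from fed of 8 members at 12, 24 and 72 hours in the fit used (black) and under each alternative. At 72 hours each alternative keeps the sign of Ttr, Trf, Lbp, Lcn2, Serpina3n and Ambp, with Ttr and Trf at -0.52 and -0.31 under loess, and at 12 and 24 hours the quantification day as a fixed block puts all 8 below 0 except Trf at 12 hours (0.01).

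Genes of acute-phase signalling and of liver transcription, listed by hand, had 57 probes for 43 of 53 genes. With limma, 0 passed at any time, and the median log2 difference was -0.02, 0.03 and 0.03. Of all probes tested, 3.92, 3.04 and 1.55% had an unadjusted p under 0.05 at 12, 24 and 72 hours. Of these 57, 1 was higher and 0 lower at 12 hours, 1 higher and 1 lower at 24 hours and 5 higher and 1 lower at 72 hours. The 5 at 72 hours were 2 of the 3 probes of the cytokine-signalling inhibitor Socs2 (1.08 and 1.23, while the third was at -0.14), the NF-kappaB inhibitor Nfkbia (1.05), the interleukin 1 receptor Il1r1 (1.82) and the acute-phase factor Cebpd (1.48), and the lower one was the leukaemia inhibitory factor receptor Lifr (-0.91), with adjusted p = 1.00 for each. Stat3 (0.11), Socs3 (0.14) and the 3 probes of the interleukin 6 signal transducer Il6st (-0.08 to 0.13) were close to 0 at 72 hours.

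Of 52 other plasma proteins and related genes outside the name rule, 19 had 25 probes. The only one that passed was metallothionein 2 (Mt2), a metal-binding protein of the acute phase but no plasma protein. Mt2 was higher by 3.80 log2 units at 72 hours (adjusted p = 0.0309). Plasma kallikrein (Klkb1) was lower by 0.90 at 72 hours (adjusted p = 1.00), and complement factor B (Cfb) and alpha-2-macroglobulin (A2m) were at -0.72 and 0.07. The median of the 25 was -0.01, -0.08 and -0.01. The 11 probes for 8 of 20 receptors and clearance genes had 0 at an unadjusted p under 0.05 at 12, 24 or 72 hours against fed. Among them, the transferrin receptor Tfrc differed by 0.20, 0.34 and 0.42 in its 3 probes at 72 hours.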

How the data were processed

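The deposited scanner output gives, per the file headers, spot intensities of Agilent's Feature Extraction software without normalization, beside its log10 ratios of reference over sample, corrected for background and dye. In the value table deposited by the authors, the same log10 ratios stand with opposite sign. The authors used quantile normalization and a Split-Factor ANOVA, which was not repeated. Here, median intensities were corrected by normexp (offset 50) and quantile-normalized together over all 24 channels, and log2 ratios of sample to reference were formed. Outlier spots counted as missing. A probe entered the test when all arrays of 1 or more groups had a sample signal well above background. Differences were tested with limma 3.58.1 (R 4.3.3) over all probes, with 1 spread shared by the 4 groups, and a call needed 1.4-fold and an adjusted p (Benjamini-Hochberg) under 0.05. Scripts were tested on simulated data. Alternatives were loess, the software's ratio, the sample channel alone, no background correction, no dim filter, outliers kept, gene averages, quantification day, replicate block, array weights, same-day arrays and leaving out arrays. Named with values were, in each role, the largest difference at each time, members at p under 0.01, well-known plasma proteins and all probes of a named gene. One member, counted throughout, is not reported by itself here. Members, lists and tests were chosen with earlier results of these data known. The number of arrays limits the precision, and p-values measure the spread between arrays, each a pool of 2 livers. In that spread, quantification day and array signal are not separated from differences between the pools.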

Additional observations from a re-analysis of the deposited data

How the results depend on the processing

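The count of members passing at 12, 24 and 72 hours was 0 in the fit used. It became 4, 3 and 0 with quantification day as a fixed block, 5, 7 and 7 with array weights and 3, 4 and 1 without both low-signal arrays, and it was 0 under each other alternative. Array weights also gave 1 from 12 to 24 hours and 4 from 24 to 72 hours (0.900 and 4.26% of all probes), where the day block gave 4 (9.79%) and the fit without the low-signal arrays 1 (1.30%). At an unadjusted p under 0.01 with 1.4-fold, counts of 0, 0 and 3 became 4, 4 and 4 with the day as a fixed block (22.2, 16.1 and 1.98% of all probes), 4, 2 and 3 as a random block (8.78, 4.18 and 1.13%), 5, 7 and 7 with array weights (9.55, 10.4 and 5.54%) and 3, 7 and 4 without the low-signal arrays (7.12, 10.8 and 3.99%). The fixed block could be fitted for 37 members. Loess and the software's ratio each gave 1 at 24 hours (0.686 and 1.06% of all probes) and, at 72 hours, 1 and 0 (0.931 and 0.503%). Leaving out single arrays gave 0 to 1, 0 to 2 and 2 to 3 members. Among all probes tested, the counts were then 42 to 339, 51 to 424 and 37 to 212. Lbp left the 72-hour count without fed replicate 2 or 3, replicate 1 of 24 hours or replicates 2 or 3 of 72 hours. The median difference of -0.06 and -0.07 at 12 and 24 hours became -0.39 and -0.44 with the day as a fixed and -0.25 and -0.20 as a random block. The cause was not tested.

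The replicate numbers did not pair the arrays: in 5 of 18 pairs of same-numbered arrays the correlation of deviations was over 0.1 (range -0.65 to 0.63). With a replicate block, 0 members passed at each time, against 2 of all 20081 probes tested. An unadjusted p under 0.01 with 1.4-fold was reached by 1, 0 and 2 members, against 102, 90 and 71 of those probes. Among values of named probes under alternatives, 1857 stayed on their side of the threshold and 30 newly passed it.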
